A study of Mus musculus with 6 samples.

Results

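Aquaporins are membrane channels that carry water down an osmotic gradient, and the water they carry in the peritoneum is a large part of what peritoneal dialysis (PD) removes. Aqp1 is the water channel of capillary endothelial cells (ECs) and of red cells, and it forms the ultrasmall water-only pores of the peritoneal barrier. A second branch of the family, the aquaglyceroporins, also passes glycerol: Aqp3 is known from epithelia, Aqp7 from adipocytes and capillary ECs, and Aqp9 from hepatocytes and leukocytes. Aqp4 (the channel of astrocyte end-feet), Aqp5 (secretory glands) and Aqp8 (liver, gut and pancreas) complete the surface channels examined, and Aqp11 lies in intracellular membranes. These 8 aquaporins were taken by symbol from the 22183 genes of the deposited count table, in which each had 1 row. Aqp2, Aqp6, Aqp12 and Mip, the other aquaporin genes of the table, were measured beside them.

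Peritoneal ECs were isolated from 3 saline-treated mice (saline mice) and from 3 mice given PD fluid (PD mice), with 1 library per mouse. The numbers given as n are mice. All were wild-type, young adult male mice of the C57BL/6J strain, injected intraperitoneally every day for 6 weeks with saline or with a glucose-based PD fluid. The sample labels describe magnetic sorting of CD31+ cells, whereas the supplementary methods describe flow sorting of CD31+ CD45- cells of the mesentery.

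Total counts ran from 21973426 to 26374292 per mouse. The CD45 transcript (Ptprc) exceeded the CD31 transcript (Pecam1) per length in both groups, with mean FPKM (deposited values per kilobase of transcript, scaled for depth) of 624 and 145 in the saline group and 392 and 158 in PD mice. The libraries thus held leukocyte RNA, against the CD31+ CD45- sorting that the supplementary methods describe. In CPM (counts scaled for depth by TMM), 12 endothelial markers summed to 1102 to 1112 in the saline group and to 1753 to 1861 in PD mice, and 11 of the 12 rose. The 10 leukocyte markers, of which Lyz2, Ptprc and Cd79a were the most abundant, summed to 8279 to 8767 and to 11082 to 11788 CPM, with 4 higher and 5 lower. The mean of Lyz2 rose from 1634 CPM in the saline group to 6690 CPM in PD mice. Ptprc fell from 2373 to 1473 CPM and Cd79a from 2052 to 889 CPM, so the sum does not describe all leukocytes alike. All 15 pancreatic acinar markers rose, from a sum of 5.70 to 11.8 CPM to one of 11349 to 15490 CPM, and all 10 fibroblast markers rose, from 335 to 390 CPM to 1410 to 1419 CPM. In bulk RNA, fewer cells of a type and less RNA per cell cannot be told apart. Of the 14005 genes tested with edgeR's quasi-likelihood test, 58.9% had a Benjamini-Hochberg adjusted p under 0.05, with 31.1% of the tested genes higher and 27.8% lower in PD mice.

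The 5 aquaporins with measurable counts were all called higher in PD mice than in saline mice, beside 31.1% of all tested genes. Aqp1 rose by 1.59-fold, Aqp3 by 1.61-fold, Aqp7 by 1.36-fold, Aqp9 by 1.94-fold and Aqp11 by 1.73-fold. The call for Aqp11 held in only 2 of 6 fits with 1 mouse left out. Aqp4, Aqp5 and Aqp8 were at 4 counts or fewer in every mouse. When the libraries were scaled to the 12 endothelial markers instead, 0 of the 5 were higher and 2, Aqp1 and Aqp7, were lower, beside 7.68% and 73.3% of all tested genes.

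The promoters of the 3 aquaporins with the highest levels per length are shown because Aqp1 and Aqp3 had the most alike profiles of any pair of members, and because Aqp3 and Aqp7 are neighbours on chromosome 4. Each run is the 250 bases before a RefSeq transcription start (GRCm38.p6), 5′ to 3′ on the gene's strand, and for Aqp7, with 2 such starts, the one nearest the GENCODE start was used. The windows are chr6:55336049-55336298 (plus strand) for Aqp1, chr4:41048137-41048386 (minus strand) for Aqp7 and chr4:41098184-41098433 (minus strand) for Aqp3. Capitals mark matches on either strand to any of 8 motifs. These are TATAAA for the box of that name, GGGCGG for the GC box, CACCC for the box named after it, AGATAA for the site of GATA factors, TGGAAA for the core of the tonicity element, AGAACA for the glucocorticoid element, AGGTCA for the nuclear receptor element and CCGGAA for the ETS site.
Aqp1: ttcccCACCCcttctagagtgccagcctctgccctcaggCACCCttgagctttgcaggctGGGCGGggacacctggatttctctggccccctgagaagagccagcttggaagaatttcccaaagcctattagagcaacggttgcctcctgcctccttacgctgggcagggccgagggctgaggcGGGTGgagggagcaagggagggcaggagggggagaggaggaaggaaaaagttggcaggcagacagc
Aqp7: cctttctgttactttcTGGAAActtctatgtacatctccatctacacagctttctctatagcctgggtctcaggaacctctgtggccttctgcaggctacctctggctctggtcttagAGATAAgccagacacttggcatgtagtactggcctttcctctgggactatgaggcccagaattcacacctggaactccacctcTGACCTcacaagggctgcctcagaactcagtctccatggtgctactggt
Aqp3: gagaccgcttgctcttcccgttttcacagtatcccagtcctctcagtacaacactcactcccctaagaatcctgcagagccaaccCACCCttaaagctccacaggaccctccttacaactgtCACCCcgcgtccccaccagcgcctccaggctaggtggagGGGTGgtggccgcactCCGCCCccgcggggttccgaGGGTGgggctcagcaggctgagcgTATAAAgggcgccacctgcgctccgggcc
The Aqp1 window (62% GC) held the CACCC box at -245, -211 and -66 and the GC box at -190, counted back from the start. The Aqp3 window (64% GC) held the CACCC box at -165, -128, -89 and -53, the GC box at -73 and the TATA box at -29. The Aqp7 window (50.8% GC) held the tonicity core at -234, the GATA site at -132 and the nuclear receptor element at -49. The window of its other start held the CACCC box at -63, the glucocorticoid element at -173 and the nuclear receptor element at -223 and -101. The 2 windows of Aqp7 overlap, and the element at -223 of the other window is the same site as that at -49 of the window shown. No capitals of one motif overlapped those of another. Among 32851 RefSeq promoters of the same length, with a median of 52.4% GC, the CACCC box was present in 52.0%, the GC box in 32.7%, the tonicity core in 18.6%, the glucocorticoid element in 16.1%, the nuclear receptor element in 14.0%, the TATA box in 12.4%, the ETS site in 12.03% and the GATA site in 9.99%. These matches describe letters only.

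The first question was how much of each channel the cells carried. Aqp1 (ENSMUSG00000004655; GRCm38 chromosome 6, 55336432 to 55348555, plus strand) was the most abundant aquaporin in every mouse. Its level per length was 215, 175 and 231 FPKM in saline mice 1, 2 and 3 and 349, 317 and 328 FPKM in PD mice 1, 2 and 3. It made up 82.3 to 85.8% of the summed FPKM of the 12 aquaporin genes in each library. Among all genes of a library it ranked between 313 and 513 by FPKM in the saline group and between 194 and 235 in PD mice.

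Aqp7 (ENSMUSG00000028427; chromosome 4, 41033074 to 41048139, minus strand) came next, at 33.1 ± 1.02 FPKM (SD, n = 3) in the saline group and 45.3 ± 2.32 FPKM (SD, n = 3) in the PD group. It supplied another 10.9 to 15.02% of the aquaporin FPKM. Aqp3 (ENSMUSG00000028435; chromosome 4, 41092722 to 41098183, minus strand) followed at 4.24 ± 0.978 FPKM (SD, n = 3) and 6.87 ± 0.449 FPKM (SD, n = 3), respectively. The 2 genes are separated by 44582 bases, in which the annotation places 1 gene, Gm25637. Within each group, the ranges of Aqp1, Aqp7 and Aqp3 did not overlap in FPKM.

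Aqp9 (ENSMUSG00000032204; chromosome 9, 71110659 to 71168682, minus strand) and Aqp11 (ENSMUSG00000042797; chromosome 7, 97724006 to 97738289, minus strand) shared the lowest place among the measurable members. Aqp9 was at 1.07 ± 0.295 FPKM (SD, n = 3) in the saline group and 2.11 ± 0.197 FPKM (SD, n = 3) in the PD group. Aqp11 was at 1.12 ± 0.351 FPKM (SD, n = 3) and 1.78 ± 0.475 FPKM (SD, n = 3), respectively. The ranges of this pair overlapped in both groups, so their order was not resolved. With counts divided by GENCODE exonic length in place of the authors' FPKM, Aqp9 stood above Aqp11 in both groups, at 0.684 against 0.225 RPKM (counts per kilobase of exon, scaled for depth) in the saline group and 1.34 against 0.391 RPKM in PD mice. For Aqp11 the authors' FPKM was 3.94 to 5.18 times that RPKM, depending on the library, and for Aqp1 the 2 measures were equal within 0.1%. In the annotation, the exons of these 5 genes overlap no exon of another gene.

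**Figure D1:**
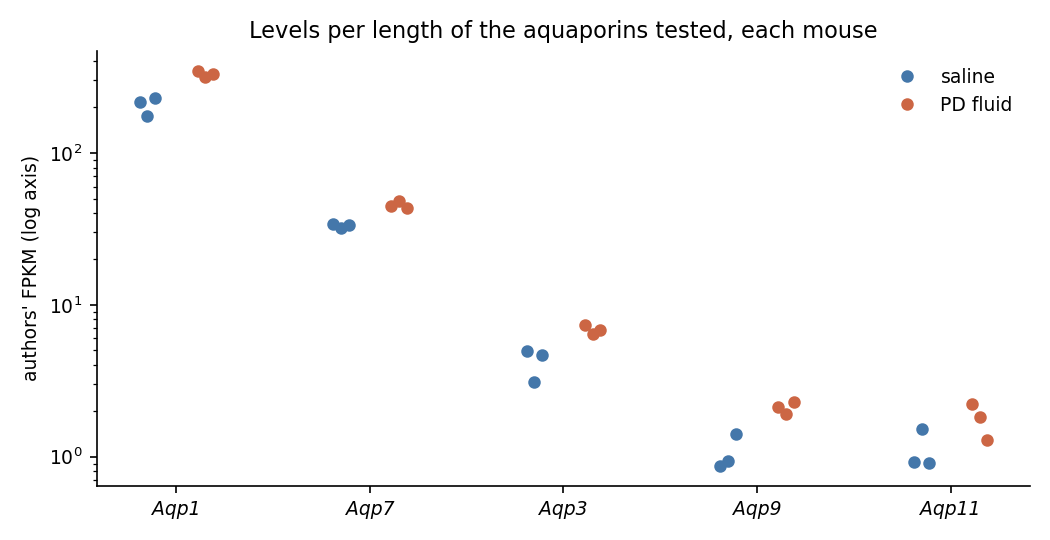
Level per length of the 5 aquaporins that passed the low-count filter, as the authors' FPKM on a log axis, with 1 point per mouse (saline blue, PD fluid orange). Aqp1 lies above Aqp7 and Aqp7 above Aqp3 in every mouse, whereas the points of Aqp9 and Aqp11 overlap.

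The next question was whether 6 weeks of PD fluid changed these levels. Aqp1 was counted 14501, 10125 and 14625 times in saline mice 1 to 3 and 24162, 19803 and 19500 times in PD mice 1 to 3. Scaled, these were 566, 467 and 606 CPM against 889, 830 and 884 CPM. Saline mouse 2 was the lowest of the 6, and the groups did not overlap. The mean of Aqp1 was 546 ± 71.5 CPM (SD, n = 3) in the saline group and 868 ± 32.3 CPM (SD, n = 3) in the PD group, a log2 fold change of 0.67 ± 0.09 (SE; adjusted p = 8.85e-05 in edgeR's quasi-likelihood test). Of all tested genes, 23.8% had a larger log2 fold change.

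Red cells and mesothelium, the lining of the cavity, also carry Aqp1. The 10 mesothelial markers, led by Gpm6a, Upk3b and Msln, all rose, from a sum of 34.0 to 39.6 CPM to one of 236 to 269 CPM. Of 7 erythroid markers tested, 1 rose and 2, Hba-a1 and Hba-a2, fell, and the 9 in the table summed to 1317 to 1516 CPM in the saline group and 1148 to 1168 CPM in the PD group. No mesothelial or erythroid marker of the table was at 0 in all saline mice. The part of these cells in the Aqp1 difference was not tested.

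Among the aquaglyceroporins, Aqp7 had the smallest change and the tightest replicates. It was at 82.3, 79.3 and 80.5 CPM in the saline group and 105, 116 and 108 CPM in the PD group, so that the lowest PD mouse lay above the highest saline mouse. Its log2 fold change was 0.44 ± 0.07 (SE; adjusted p = 0.000219 in edgeR's quasi-likelihood test). Adipocytes express Aqp7 strongly, and their markers were low. The 10 markers summed to 24.4 to 27.6 CPM in the saline group and 25.999 to 30.9 CPM in the PD group, and 1 of the 6 tested rose. The most abundant of them, Cfd, Cidec and Adipoq, did not pass the test, and Adipoq was at 2.44 to 4.06 CPM in the saline group and 2.36 to 2.83 CPM in the PD group. The marker that rose was Plin4, from 1.03 ± 0.356 to 3.22 ± 1.49 CPM (SD, n = 3 each). Its log2 fold change was 1.66 (adjusted p = 0.00355 in the same edgeR test). Lep, another defining adipocyte marker, had 5, 2 and 2 counts in saline mice 1 to 3 and 0 in all PD mice. It did not pass the low-count filter. The part of adipocytes in the Aqp7 difference was not tested.

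Aqp3, which passes water and glycerol, was at 8.75, 5.58 and 8.16 CPM in the saline group and 12.6, 11.4 and 12.3 CPM in the PD group. Saline mouse 2 was again the lowest, as for Aqp1, and the groups did not overlap. The log2 fold change was 0.69 ± 0.17 (SE; adjusted p = 0.00505 in edgeR's quasi-likelihood test). Epithelia are a known site of Aqp3. Of 5 intestinal epithelial markers tested, 2 rose, Krt20 (mean 0.13 to 1.81 CPM) and Fabp2 (mean 0 to 0.905 CPM), both at low levels. The 2 most abundant, Lgals4 (log2 fold change -0.19, adjusted p = 0.184) and Epcam (0.11, adjusted p = 0.622), did not pass the edgeR test. Neither did Cdhr5. The 10 of that list summed to 21.9 to 22.6 CPM in the saline group and 21.6 to 26.5 CPM in the PD group, with Cdx2, a defining one, at 0 in all 6 libraries. Other epithelial markers were higher in PD mice, among them the keratins of the mesothelial and duct lists (Krt19, Krt8 and Krt7) and the 15 acinar markers. The part of epithelial cells in the Aqp3 difference was not tested.

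Aqp9, the leukocyte and liver channel for glycerol and other small solutes, rose beside Aqp1 at a far lower level. It was at 2.30, 2.49 and 3.73 CPM in the saline group and 5.37, 4.95 and 6.25 CPM in the PD group. The groups did not overlap, although each level rested on only 54 to 146 counts. The log2 fold change was 0.96 ± 0.22 (SE; adjusted p = 0.0036 in edgeR's quasi-likelihood test), and 16.9% of tested genes exceeded it. It was the largest value among the members, but within its SE of that of Aqp11, which exceeded it without saline mouse 2 (1.05 against 0.87) and without PD mouse 3 (0.90 against 0.87). Of 9 neutrophil markers tested, 8 rose, and the 10 listed summed to 17.9 to 21.3 CPM in the saline group and 374 to 411 CPM in the PD group. Ngp and S100a8 were the most abundant of them over all libraries. The macrophage and myeloid marker Lyz2 rose as well, from 1571 to 1698 CPM to 6340 to 7016 CPM. The part of these leukocytes in the Aqp9 difference was not tested.

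Aqp11, the intracellular member, was at 1.68, 2.86 and 1.86 CPM in the saline group and 3.97, 3.90 and 3.13 CPM in the PD group. Its groups were the closest of the 5, with 2.86 CPM in saline mouse 2 against 3.13 CPM in PD mouse 3. The log2 fold change was 0.79 ± 0.25 (SE; adjusted p = 0.0201 in edgeR's quasi-likelihood test). This call depended on single mice, because it was lost without saline mouse 1 (0.65, adjusted p = 0.0709), saline mouse 3 (0.70, adjusted p = 0.0603), PD mouse 1 (0.73, adjusted p = 0.0675) or PD mouse 2 (0.75, adjusted p = 0.0606) in the same edgeR test.

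**Figure D2:**
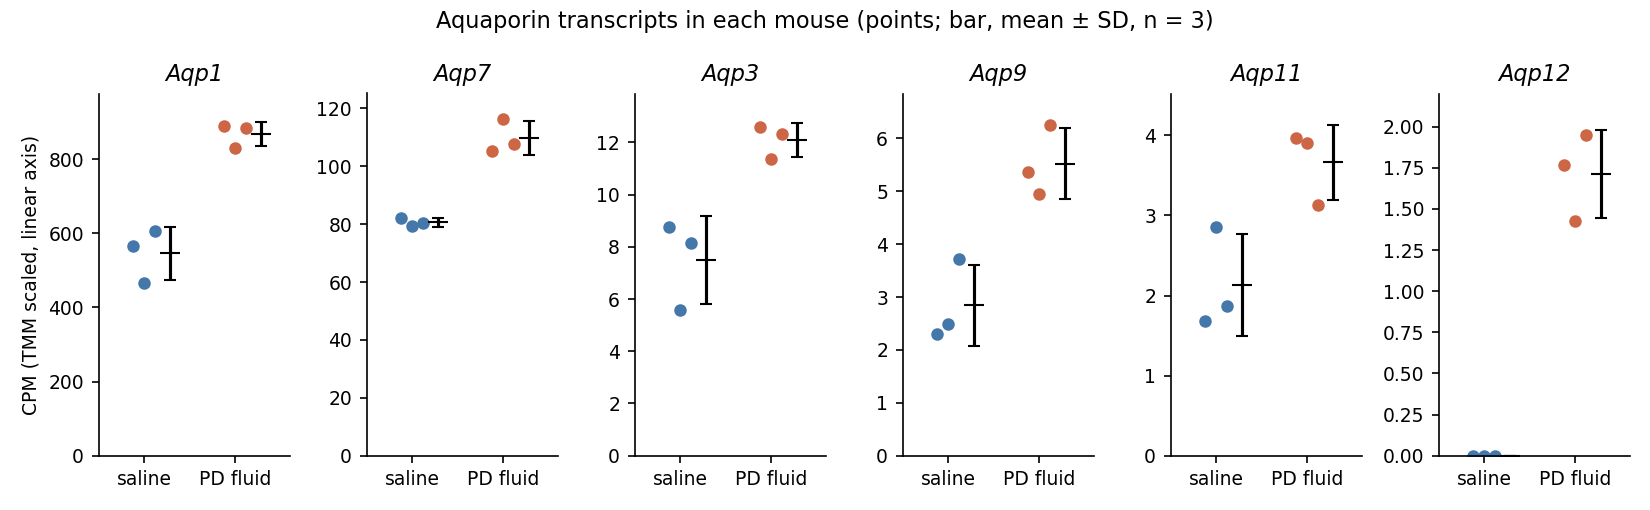
TMM-scaled CPM of the 5 measurable aquaporins and of Aqp12 in each mouse, on linear axes that start at 0, with points for mice and bars for the mean ± SD (n = 3). In every panel the 3 PD mice lie above the 3 saline mice, and the gap is narrowest for Aqp11.

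Counted together, 5 of the 8 aquaporins passed the filter and all 5 were called higher, beside 31.1% of all tested genes. Non-overlap with PD mice on the higher side was seen for the same 5 and for 34% of tested genes (65.6% in either direction). Passing the filter did not depend on the PD mice, since all 5 had 43 or more counts in every saline mouse. The median log2 fold change of the 5 was 0.69, beside 0.02 for all tested genes.

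Within each library, each less abundant aquaporin was also set against Aqp1, a ratio that needs no scaling. The log2 count ratio to Aqp1 differed, PD minus saline, by 0.04 for Aqp3, -0.23 for Aqp7, 0.31 for Aqp9 and 0.14 for Aqp11. None of the 4 passed a two-sided exact permutation test (p = 0.7, 0.2, 0.3 and 0.8; adjusted over the 4 ratios, 0.8, 0.6, 0.6 and 0.8), where 0.1 is the smallest p that groups of 3 can give. Over the 6 libraries, which share the group difference, Pearson's r of log2 CPM between members ran from 0.49 (Aqp3 and Aqp11) to 0.97 (Aqp1 and Aqp3).

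Since the sorted cells were to be endothelial, the aquaporins were set beside the endothelial markers. The log2 fold changes of the 12 markers ran from 0.13 for Pecam1, which did not pass the test (adjusted p = 0.0704 in edgeR's quasi-likelihood test), to 1.65 for Tie1, an endothelial receptor, with a median of 0.98. A larger log2 fold change than that of Aqp1 was found in 9 of the 12, and a larger one than that of Aqp7 in 11. The corresponding numbers were 9 for Aqp3, 9 for Aqp11 and 7 for Aqp9.

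Ratios of counts within a library were computed as well, for the same reason. Aqp1 per count of Kdr, the VEGF receptor of ECs, was 6.80, 5.71 and 7.25 in the saline group and 5.46, 4.99 and 5.43 in PD mice. The Aqp1 ratio was lower in every PD mouse than in every saline mouse for 7 of the 12 markers and overlapped for 4 (Tek, Egfl7, Emcn and Erg). It was higher for 1, Pecam1, at 1.24, 0.9504 and 1.32 in the saline group and 1.71, 1.65 and 1.71 in PD mice. For Aqp7 the ratio was lower for 10 markers, overlapped for Tek and was higher for Pecam1. The direction of the ratio thus depended on the marker, and Pecam1 encodes the protein on which the cells were sorted.

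**Figure D3:**
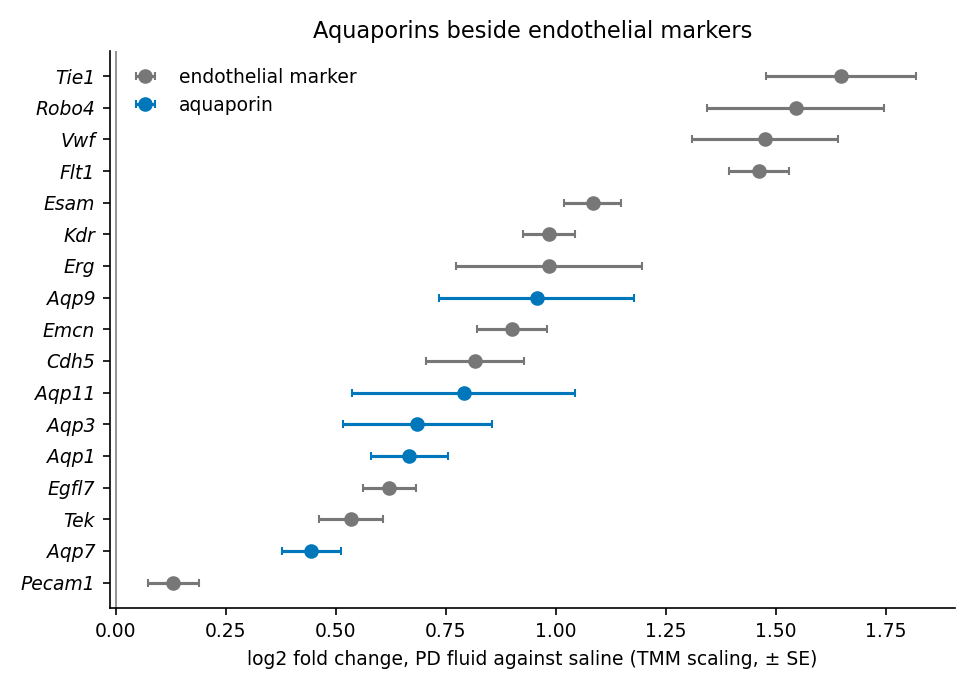
Log2 fold change of PD mice against saline mice (TMM scaling, horizontal axis) with its SE for 12 endothelial markers (grey) and the 5 measurable aquaporins (blue), in order of size. Aqp1 and Aqp3 lie below 9 of the 12 markers, and Aqp7 lies below every marker except Pecam1.

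With the 12 markers used as the scale, Aqp1 changed by -0.35 ± 0.11 on the log2 scale (SE; adjusted p = 0.00795 in edgeR's quasi-likelihood test) and Aqp7 by -0.58 ± 0.11 (SE; adjusted p = 5.31e-05 in the same edgeR test). Aqp3 (-0.33, adjusted p = 0.0752 in that edgeR test), Aqp11 (-0.25, adjusted p = 0.414) and Aqp9 (-0.06, adjusted p = 0.823) did not pass. This scaling moved the median of all tested genes to -1.01, with 7.68% of genes higher and 73.3% lower. A change of scale shifts all genes by nearly the same amount. That each aquaporin stayed above the median gene was therefore fixed in advance. Relative to the whole library all 5 aquaporins rose, and relative to the endothelial markers none was called higher.

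**Figure D4:**
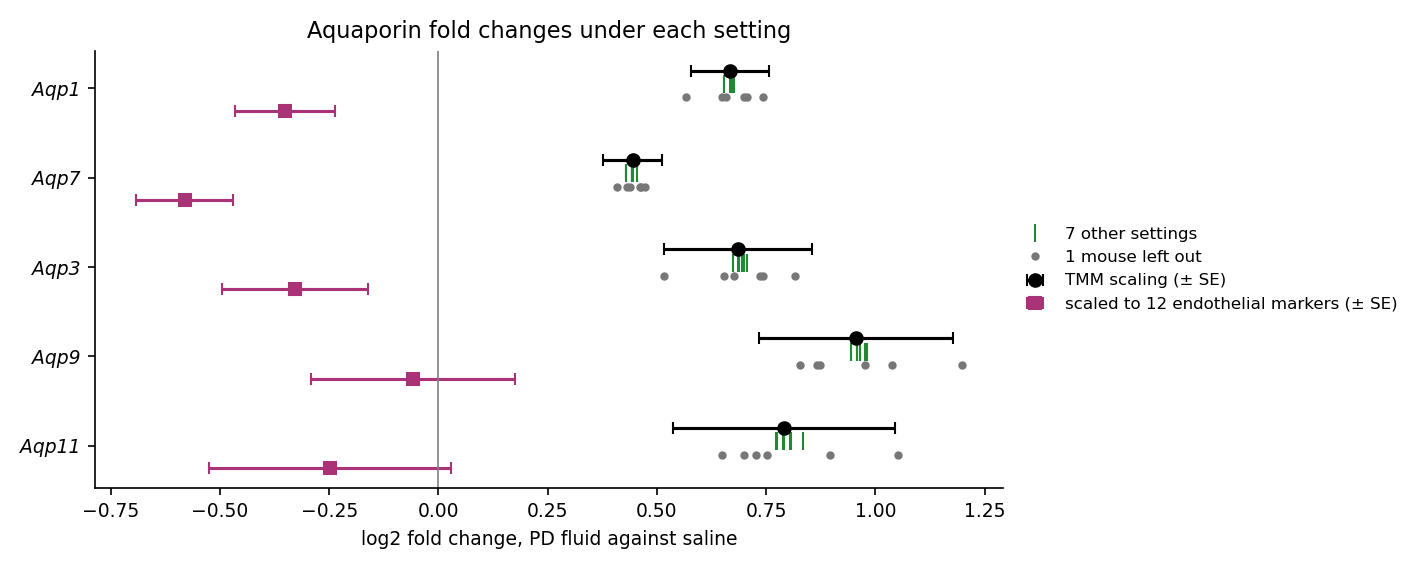
Log2 fold change of each aquaporin under TMM scaling (black, ± SE), with 1 mouse left out in turn (grey points), under 7 other settings of test, filter, scaling or pairing (green ticks) and with libraries scaled to the 12 endothelial markers (purple, ± SE). Every value except those of the endothelial scaling lies above 0, and all 5 values of the endothelial scaling lie below it.

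The remaining members were near or under the limit of detection. Aqp4 had 4 counts in saline mouse 1, 1 count in PD mouse 3 and 0 elsewhere. Aqp8 had 0 counts in the saline mice and 0, 4 and 1 in PD mice 1 to 3. Aqp5 had 0 counts in all 6 libraries, where 3 counts correspond to 0.110 to 0.138 CPM, an upper limit that covers counting error only. No difference between the groups was detectable for these channels at this depth.

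Of the other aquaporins, Aqp12, a channel of pancreatic acinar cells that lies in intracellular membranes, was at 0 counts in the saline mice and at 48, 34 and 43 counts in PD mice 1 to 3. Its level in PD mice, 1.71 ± 0.265 CPM (SD, n = 3), was at least 13.5-fold above the limit of 3 counts per library averaged over the saline mice (adjusted p = 3.54e-05 in edgeR's quasi-likelihood test). The acinar markers rose beside it, led by Amy2a5, Cela2a and Cel. Cel was at 0.117 to 0.461 CPM in the saline group and 1003 to 1027 CPM in the PD group. Of 7 pancreatic duct markers tested, 6 rose, led by Spp1, Krt19 and Tff2, and the 10 listed summed to 11.4 to 13.4 CPM in the saline group and 110 to 125 CPM in the PD group, with Cftr, Onecut1 and Tff2 at 0 in the saline mice. Krt19 is also on the mesothelial list. The part of pancreatic cells in the Aqp12 difference was not tested. Aqp2, the vasopressin-regulated channel of the collecting duct, had 0 counts in the saline group and 4, 1 and 1 in PD mice, Mip, the lens channel, had 1 to 3 counts in each library, and Aqp6 had 0 throughout.

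Genes that work with the channels were then read from 3 lists. Aquaglyceroporins release the glycerol that lipolysis makes, and 6 of 13 genes of glycerol handling rose while 2 fell, with a median log2 fold change of 0.48, beside 31.1% higher and 27.8% lower among all tested genes. Lpl, the lipase of the capillary surface, rose from 21.9 ± 4.42 to 57.0 ± 0.911 CPM (SD, n = 3 each; log2 fold change 1.38 ± 0.12 SE, adjusted p = 4.52e-06 in edgeR's quasi-likelihood test). Mgll, which frees glycerol from monoglycerides, rose from 72.4 ± 3.70 to 117 ± 3.10 CPM (0.69, adjusted p = 9.17e-06 in the same edgeR test). Gpd1 (1.04, adjusted p = 0.00937), which links glycerol to glycolysis, and the lipolysis genes Pnpla2, Lipe and Abhd5 were the other higher genes. Gpd1l, a relative of Gpd1, fell from 107 ± 3.68 to 68.3 ± 5.25 CPM (-0.64, adjusted p = 3.46e-05 in the edgeR test). The mitochondrial Gpd2 fell by 0.19 on the log2 scale (adjusted p = 0.0435 in the edgeR test); with any 1 mouse left out, the list's count of lower genes was 1. Gk, the kinase that traps glycerol in the cell, was at 10.8 ± 2.24 and 10.5 ± 0.709 CPM (SD, n = 3 each) and did not pass. Relative to the endothelial markers, Lpl alone of the 13 was higher (0.34, adjusted p = 0.0372 in the edgeR test) and 10 were lower, where 73.3% of all tested genes were lower.

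Of 19 tested genes of ion, urea and anion transport, 10 rose and 4 fell, beside the same 31.1% and 27.8% of all tested genes, with a median log2 fold change of 0.58. The largest fall was that of Slc14a1, the urea transporter UT-B of red cells and vessels. It was at 60.2 to 61.7 CPM in the saline group and 23.4 to 24.6 CPM in the PD group, so the groups were far apart beside their spread. Its log2 fold change was -1.33 ± 0.08 (SE; adjusted p = 1.07e-07 in edgeR's quasi-likelihood test) and -2.36 with the endothelial scaling (adjusted p = 1.10e-12 in the edgeR test). The haemoglobin genes Hba-a1 and Hba-a2, markers of red cells, had log2 fold changes of -0.34 and -0.35 under TMM scaling, and the part of red cells in the Slc14a1 difference was not tested.

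The other genes that fell were Slc4a7, a sodium bicarbonate transporter (-0.61, adjusted p = 0.000483 in the edgeR test), Atp1b1, a subunit of the sodium pump (-0.28, adjusted p = 0.0416), and the carbonic anhydrase Car2. Atp1b2, another beta subunit of that pump, rose from 11.3 ± 0.470 to 22.5 ± 1.62 CPM (SD, n = 3 each; log2 fold change 1.00, adjusted p = 2.07e-05 in the edgeR test). Scnn1a, a subunit of the epithelial sodium channel, had the largest rise (2.36, adjusted p = 0.00633 in the edgeR test) at a level of only 0.139 CPM in the saline group and 0.750 CPM in the PD group. With the endothelial scaling, 0 of the 19 were higher and 12 were lower, beside 7.68% and 73.3% of all tested genes.

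Of 14 genes of aquaporin anchoring and trafficking, 8 rose and 1 fell, with a median log2 fold change of 0.62. Of all tested genes, 58.9% were called in either direction. Genes of the dystrophin-associated complex that anchors Aqp4 in other tissues were among those that rose, although Aqp4 itself was close to 0. Dtna, a dystrobrevin, rose from 0.562 ± 0.137 to 3.09 ± 0.560 CPM (SD, n = 3 each; log2 fold change 2.45, adjusted p = 6.43e-05 in edgeR's quasi-likelihood test). Agrn, a basement membrane proteoglycan bound by dystroglycan, rose by 1.42 on the log2 scale (adjusted p = 0.000138 in the edgeR test). With the endothelial scaling, Dtna was still higher (1.43, adjusted p = 0.000792 in the edgeR test), whereas 8 of the 14 genes were lower, again beside 73.3% of all tested genes. Smooth muscle carries this complex too, and 9 of 10 smooth muscle and pericyte markers, led by Rgs5, Acta2 and Tagln, rose, with sums of 293 to 314 CPM in the saline group and 468 to 516 CPM in the PD group. Their part in these differences was not tested. Vta1, an endosomal sorting protein, fell by 0.39 on the log2 scale (adjusted p = 0.00176 in the edgeR test).

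**Figure D5:**
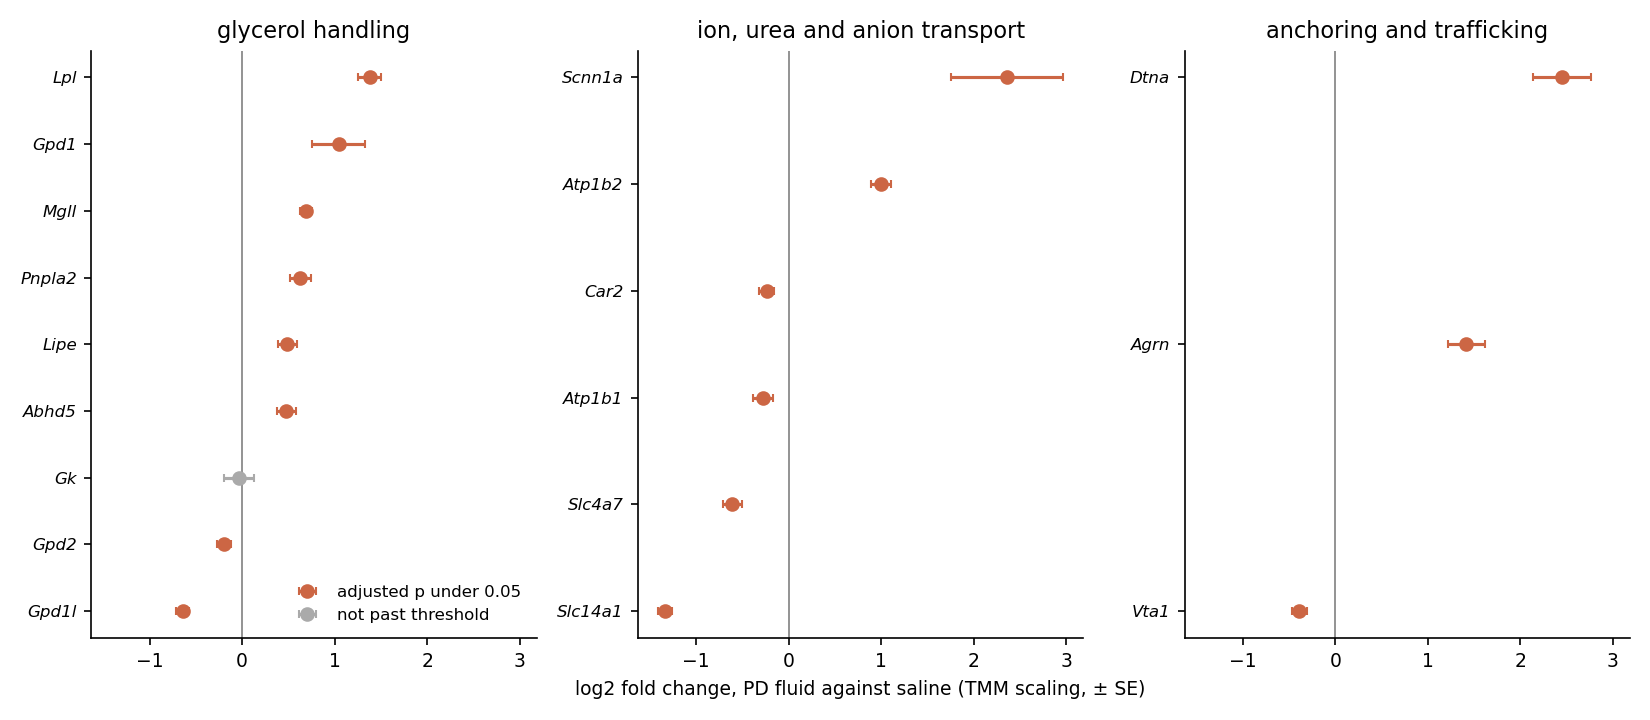
Log2 fold change of PD mice against saline mice (TMM scaling, ± SE) for the genes named above from the lists of glycerol handling, of ion, urea and anion transport, and of aquaporin anchoring and trafficking, with genes past the adjusted p threshold in orange. Dtna and Scnn1a lie farthest to the right and Slc14a1 farthest to the left, at -1.33.

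Likeness to the measurable aquaporins was described by Pearson's r of log2 CPM over the 6 libraries, which share the group difference and differ in depth. The genes most like Aqp1 were Dennd5a, Acap3, C1qtnf9, Rhbdl3 and Numbl (r between 0.998 and 0.999), but 1216 of 14004 genes (8.68%) had an r of 0.95 or more. For Aqp7 the nearest were Kdelr3, Plekha8, Ptpn14, Myzap and Clec14a, the last an endothelial surface protein, and 1524 genes (10.9%) reached 0.95. For Aqp3 they were Lgi4, Mex3d, Sh2d3c, Dgkq and Zdhhc5, with 527 genes at 0.95 or more. For Aqp9 they were Coro6, Slc30a1, Msantd2, Rhbdd3 and Mknk1, with 287 genes, and for Aqp11 Zdhhc2, Arhgap28, Cgas, Hif1a and Ncoa4, with 91 genes.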

How the data were processed

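The authors deposited read counts per gene and mouse, without normalization, and FPKM values computed from the same reads. The submitters' processing notes list fastp 0.18.0, Bowtie2 2.2.8, HISAT2, StringTie and RSEM; the genome build is not given in the sources used here. The deposited log2 fold changes and p-values are the authors' own comparison and were not used. Positions are from GENCODE M21 (GRCm38), to which 22128 identifiers matched.

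Counts were filtered with filterByExpr, scaled by TMM and tested in edgeR 4.0.16 (R 4.3.3) with the quasi-likelihood test, with no covariate and Benjamini-Hochberg adjustment over all 14005 genes (threshold 0.05). Standard errors were derived from the F statistic. Alternatives used DESeq2 1.42.0, limma 3.58.1 (voom; the study names limma without the method) and other filters and scalings. Tables were made with Python 3.11.15, pandas 2.3.3, numpy 2.4.6 and scipy 1.17.1. FPKM was used for levels per length and for no test. Counting strand is not stated. Libraries of one group differed beyond sampling noise (chi-square per degree of freedom between 6.46 and 17.8).

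On counts simulated for this comparison (13994 genes in the fit), 79 of 87 genes changed by 1 on the log2 scale and 112 of 112 changed by 2 were recovered, and 6 unchanged genes were called. The simulation changed 200 genes and gave every gene the same dispersion. In the data 58.9% of tested genes were called, and the largest log2 fold change of a member was 0.96. The simulated rates therefore do not carry over to the aquaporin calls. Named genes are the aquaporins, the sorting markers, up to 3 called genes per direction in each pathway list (mean of at least 10 counts), up to 3 abundant markers per cell type list, and the 5 genes most like each called member. Other genes were named after their values were seen. Members and lists were chosen with earlier results of these data known. Of the listed genes, 2 were not found in the table. Proteins were not analysed here, and some genes counted in the lists are not reported here by name.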

Additional observations from a re-analysis of the deposited data

How the results depend on the processing

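The higher level of Aqp1, Aqp3, Aqp7 and Aqp9 in PD mice kept its direction and its call with each mouse left out in turn and under 7 other settings (DESeq2, limma-voom, no filter on low counts, library size only, DESeq2 size factors, acinar markers left out, and the replicate number as a block). With 1 mouse left out, the log2 fold changes ran from 0.57 to 0.74 for Aqp1, 0.52 to 0.82 for Aqp3, 0.41 to 0.47 for Aqp7, 0.83 to 1.20 for Aqp9 and 0.65 to 1.05 for Aqp11. The call for Aqp11 held in 2 of those 6 fits (adjusted p from 0.0049 to 0.0709 in edgeR's test), so 4 or 5 members were called. Those fits have fewer samples. Samples with the same replicate number did not deviate together (correlations of 0.10, 0.04 and -0.17). With the replicate block, 4242 genes were higher and 3667 lower, and the same 5 members were higher.

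Scaling to the 12 endothelial markers turned all 5 log2 fold changes: Aqp1 to -0.35, Aqp3 to -0.33, Aqp7 to -0.58, Aqp9 to -0.059 and Aqp11 to -0.25. Under it 0 members were higher and 2 lower, 1076 genes were higher and 10265 lower in all, and by list 1 was higher and 10 lower in glycerol handling, 0 and 12 in ion, urea and anion transport, and 2 and 8 in anchoring and trafficking. This follows from the scale itself, since the markers rose more than most genes. Split of calls under TMM was 4359 higher and 3887 lower.

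The glycerol genes called lower numbered 1 instead of 2 under DESeq2, no filter, library size only and the replicate block, and 1 with any 1 mouse left out. The anchoring genes called lower numbered 2 instead of 1 under DESeq2, DESeq2 size factors and the replicate block, and 1 to 2 with 1 mouse left out. The transport genes called lower numbered 2 to 4 with 1 mouse left out, 2 without saline mouse 2 and without PD mouse 1. With RPKM in place of FPKM, 3 of the 5 measurable members kept their place in the saline order. The cause of these was not tested. Depth limited Aqp4, Aqp5 and Aqp8, at 0 to 4 counts per library.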
